A study of Mus musculus with 4 samples.

Results

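A set of 10 chromatin regulator genes with known roles in the development of invariant natural killer T (iNKT) cells was followed here: the Polycomb genes Ezh1, Ezh2, Eed, Suz12 and Jarid2, the histone demethylase genes Kdm6a and Kdm6b, the histone deacetylase genes Hdac3 and Hdac7, and the corepressor gene Ncor1. They were chosen by name from a table of 53715 genes, all 10 were found by symbol, and all 10 passed the filter on low counts together with 14185 genes in all. RNA was counted in 4 Smart-seq2 libraries of iNKT cells sorted from mouse thymus as live cells that bound the CD1d tetramer and carried TCRβ. The 2 Mettl3 knockout libraries came from Mettl3fl/flCD4-cre mice, in which Cre driven by Cd4 acts on floxed Mettl3 alleles from the CD4+CD8+ thymocyte stage, and the 2 WT libraries came from mice labelled WT; all were C57BL/6 mice 6 to 8 weeks old. The labels give no Cre for the WT mice. Whether the libraries of a genotype are separate animals is not stated in the labels, so each p-value reflects the spread between 2 libraries per genotype, possibly a technical one.

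Polycomb repressive complex PRC2 methylates lysine 27 of histone H3 (H3K27) and so keeps genes silent. Its catalytic subunit is EZH2 or EZH1, EED and SUZ12 are required for its activity, and JARID2 helps to bring it to its targets. KDM6A (UTX) and KDM6B (JMJD3) remove the same methyl groups. HDAC3 removes acetyl groups from histones and becomes active when bound to the corepressor NCOR1, while HDAC7 is a class IIa deacetylase that leaves the thymocyte nucleus after T cell receptor signals. In mice, loss of EZH2 enlarges the pool of T cells that express PLZF (Zbtb16), the master regulator of iNKT cells, and loss of UTX or HDAC3 impairs iNKT development. METTL3 is the catalytic subunit of the methyltransferase that writes m6A on mRNA, and the question put to these data is whether its loss changes the transcripts of these chromatin regulators.

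The m6A methyltransferase prefers the motif GGACT and acts most often near stop codons, so this motif was located in 1 GENCODE transcript per gene, on the transcript strand only. The match nearest the stop codon is shown, with 8 bases on each side and the motif in capitals, for Hdac7, Jarid2 and Ezh1, whose 95% intervals of the log2 fold change excluded 0, and for Ezh2 as the paralog of Ezh1.
Hdac7: accagggaGGACTctgggagg
Jarid2: ggtccacaGGACTgtacagca
Ezh1: gagcactgGGACTgtaaggtg
Ezh2: agaagcagGGACTgaaactgg
The Hdac7 window lies in the 3′ UTR at chr15:97793511-97793531 (GRCm38, minus strand), with the motif starting 174 bases past the stop codon. The other windows are coding: that of Jarid2 is at chr13:44913686-44913706 (plus strand), that of Ezh1 at chr11:101195561-101195581 (minus strand) and that of Ezh2 at chr6:47545735-47545755 (minus strand). Relative to the end of the stop codon, these motifs start at -715 bases (Jarid2), -459 bases (Ezh1) and -1087 bases (Ezh2), where negative values lie upstream. Of the 11681 tested protein-coding genes with a transcript, 91.8% held at least 1 GGACT, with a median of 1.05 per kilobase. Hdac3 and Hdac7 were the densest of the 10 genes, with 4 matches (1.97 per kilobase, above 87.4% of those genes) and 7 matches (1.70 per kilobase, above 80.3%), of which 4 in Hdac7 were in the 3′ UTR. Jarid2 had 7 matches (1.17 per kilobase), Ezh1 had 2 (0.477 per kilobase) and Ezh2 had 2 (0.718 per kilobase), while Suz12 had 0. A match is a description of these letters only, and methylation was not measured here.

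None of the 10 genes rose or fell past the threshold in the Mettl3 knockout. With the quasi-likelihood test of edgeR and Benjamini-Hochberg adjusted p-values, 0 of 10 were called at an adjusted p under 0.05, where 2.59% of all tested genes were (1.09% higher and 1.51% lower in the knockout). Hdac7 came nearest, with a level 1.62-fold that of WT and an adjusted p of 0.0512. At an unadjusted p under 0.05 there were 3 of the 10 genes, Hdac7, Jarid2 and Ezh1, where 20.2% of all tested genes passed; DESeq2 called 2, Hdac7 and Ezh1, where it called 9.45% of genes, and limma voom called 0, where it called 1.9%. The libraries of the genotypes did not overlap for 4 of the 10 genes, 2 higher and 2 lower in the knockout, where 50.3% of all tested genes did not overlap (25.4% higher and 24.9% lower). The median log2 fold change of the 10 genes was 0.17, against 0.02 over all tested genes. For 8 of the 10 the 95% interval of the fold change lay within 2-fold in either direction, and the exceptions were Suz12 and Hdac7. These are shares of RNA in bulk samples, in which fewer cells of a type and less RNA per cell cannot be told apart.

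**Figure D1:**
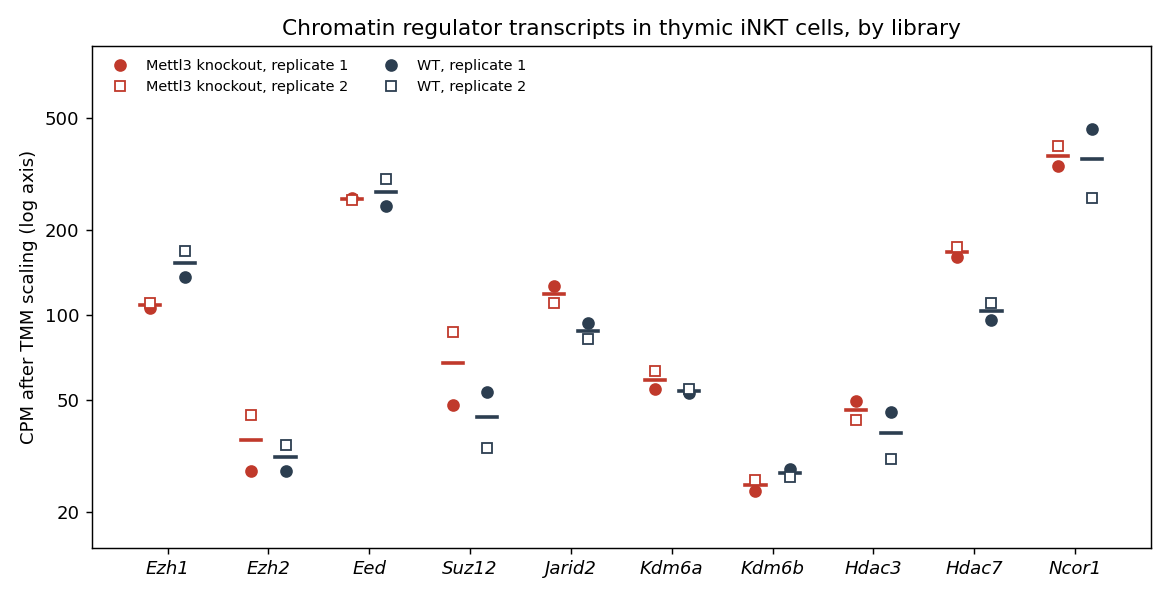
Level of each of the 10 transcripts in CPM, which is TMM-normalised, on a log axis; each point is 1 library, bars are means of 2 libraries, Mettl3 knockout left and WT right of each gene. The knockout libraries of Hdac7, at 160.7 and 174.4 CPM, lie above both WT libraries, while those of Eed, Kdm6a and Ncor1 lie among the WT values or next to them.

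Levels across the libraries are given in CPM, read counts scaled to the size of each library with TMM factors, and levels between genes in CPM per kilobase of exon. Per kilobase, Eed was the most abundant of the 10 genes at a mean of 69.6 over the 4 libraries, above 94.6% of tested genes. Ncor1 at 28.3, Hdac7 at 20.1 and Ezh1 at 17.5 came next, then Suz12 at 11.2, Jarid2 at 10.6 and Hdac3 at 10.4. Kdm6a at 6.74, Ezh2 at 5.06 and Kdm6b at 3.78 were the least abundant, and Kdm6b stood above 46.0% of tested genes. Neighbours in this order had overlapping library values except at 3 steps: Eed was above Ncor1 in every library pairing, Hdac3 above Kdm6a, and Ezh2 above Kdm6b. The step from Hdac3 to Kdm6a was narrow, with a lowest Hdac3 library of 7.63 and a highest Kdm6a library of 7.55 CPM per kilobase.

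Ezh1 and Ezh2 are alternative catalytic subunits, EZH2 being the form of dividing cells and EZH1 that of resting cells. Ezh1 (ENSMUSG00000006920.14; GRCm38 chromosome 11, 101191115 to 101226463, minus strand) was at 106.3 and 110.4 CPM in the Mettl3 knockout, against 137.1 and 168.3 CPM in WT. Both knockout libraries lay below both WT libraries. The log2 fold change was -0.49, with a 95% interval from -0.84 to -0.14 (SE 0.15; edgeR adjusted p = 0.131), outside the threshold, although DESeq2 gave an adjusted p of 0.0418. Ezh2 (ENSMUSG00000029687.16; chromosome 6, 47530139 to 47595341, minus strand) was at 27.9 and 44.3 CPM in the knockout, against 28.0 and 34.8 CPM in WT. Here the genotypes overlapped, since knockout replicate 1 matched the lower WT library and knockout replicate 2 was the highest of all. Its log2 fold change was 0.20, with a 95% interval from -0.45 to 0.86 (SE 0.28; edgeR adjusted p = 0.75), and it was -0.17 without knockout replicate 2.

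Within each library, Ezh1 exceeded Ezh2 per kilobase by 3.41 and 2.24 times in the Mettl3 knockout, against 4.40 and 4.34 times in WT. The mean log2 ratio was 1.47 ± 0.43 in the knockout and 2.13 ± 0.01 in WT (SD, n = 2 each; exact permutation p = 0.333, two-sided). This is the smallest p that this permutation test can give with 2 libraries against 2. The difference of the mean log2 ratios was -0.66, and it was -0.36 without knockout replicate 2 and -0.97 without knockout replicate 1. The WT libraries agreed closely, whereas the knockout libraries differed from each other by more than knockout replicate 1 differed from WT.

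Genes of the cell cycle, in which EZH2 is known to be induced, were read beside Ezh2. Of 20 on the list, 1 was called higher in the knockout and 0 lower, against 1.09% and 1.51% of all tested genes. The median log2 fold change of the 20 was 0.22. Their summed level was 3241 and 3073 CPM in the knockout, against 2687 and 2691 CPM in WT. Most of each sum was Mcm2, Mcm3, Mcm5, Mcm6 and Mcm7. Libraries did not overlap for 9 genes that were higher, against 25.4% of all tested genes. They also did not overlap for 1 that was lower, Pcna (log2 fold change -0.37), against 24.9%. An unadjusted p under 0.05 by edgeR was reached by 6 of the 20, against 20.2% of all tested genes. The called gene was Mki67, a proliferation marker, at 128.2 and 157.7 CPM in the knockout, against 84.2 and 73.2 CPM in WT (0.86 ± 0.16, log2 fold change ± SE; edgeR adjusted p = 0.0464); leaving out any 1 library ended this call (adjusted p from 0.115 to 0.272). The part of cell division in the Ezh2 and Ezh1 values was not tested.

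**Figure D2:**
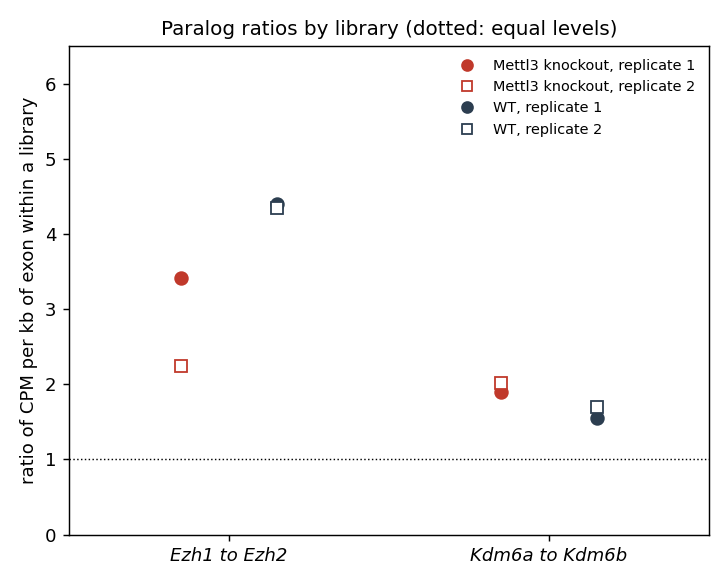
Ratio of Ezh1 to Ezh2 and of Kdm6a to Kdm6b, in CPM per kilobase of exon, in each of the 4 libraries on a linear axis from 0; Mettl3 knockout is left of WT. Both Ezh1 to Ezh2 ratios of the knockout, 3.41 and 2.24, lie below the WT ratios of 4.40 and 4.34, and they lie far apart.

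For Eed and Suz12, the remaining core subunits of PRC2, the libraries of the genotypes overlapped. Eed (ENSMUSG00000030619.9; chromosome 7, 89954654 to 89980983, minus strand), whose product binds trimethylated H3K27 and stimulates the enzyme, was at 260.6 and 256.2 CPM in the Mettl3 knockout, against 243.3 and 304.9 CPM in WT. The knockout values fell between the WT values. The log2 fold change was -0.08, with a 95% interval from -0.40 to 0.23 (SE 0.13; edgeR adjusted p = 0.791), the narrowest interval of the 10 genes. Suz12 (ENSMUSG00000017548.15; chromosome 11, 79993106 to 80034123, plus strand), the scaffold of the complex, was at 48.2 and 87.0 CPM in the knockout, against 53.3 and 33.8 CPM in WT. The genotypes overlapped and the spread was wide in both, and the log2 fold change was 0.62, with a 95% interval from -0.14 to 1.39 (SE 0.33; edgeR adjusted p = 0.341). It was 0.14 without knockout replicate 2 and 0.99 without knockout replicate 1 or WT replicate 1.

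Jarid2 (ENSMUSG00000038518.15; chromosome 13, 44729474 to 44921643, plus strand) encodes the accessory subunit that in mice binds the gene of PLZF and limits its expression in iNKT precursors. It was at 126.8 and 110.9 CPM in the Mettl3 knockout, against 94.0 and 82.0 CPM in WT. Both knockout libraries lay above both WT libraries. The log2 fold change was 0.43, with a 95% interval from 0.07 to 0.79 (SE 0.15; edgeR adjusted p = 0.174), and it lay between 0.33 and 0.52 with any 1 library left out. Zbtb16 itself was at 352.6 and 350.4 CPM in the knockout, against 255.5 and 192.3 CPM in WT (log2 fold change 0.65; edgeR adjusted p = 0.0659). It passed with DESeq2 (adjusted p = 0.000913) and by edgeR among genes of at least 5 CPM in 2 libraries (adjusted p = 0.0278). It did not pass with limma voom (adjusted p = 0.0663), or by edgeR with the replicate block (adjusted p = 0.159). With any 1 library left out the log2 fold change of Zbtb16 was 0.46 to 0.86.

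The demethylase genes differed little, in opposite directions, and neither passed the threshold. Kdm6a (ENSMUSG00000037369.17; chromosome X, 18162575 to 18279936, plus strand) was at 54.8 and 63.3 CPM in the Mettl3 knockout, against 53.1 and 54.9 CPM in WT. Its log2 fold change was 0.13, with a 95% interval from -0.28 to 0.54 (SE 0.18; edgeR adjusted p = 0.751), and it was 0.02 without knockout replicate 2 and 0.23 without knockout replicate 1. Kdm6b (ENSMUSG00000018476.7; chromosome 11, 69398508 to 69413675, minus strand), an inducible gene in many immune cells, was at 23.9 and 26.0 CPM in the knockout, against 28.4 and 26.8 CPM in WT. The libraries did not overlap, but by a small margin, and the log2 fold change was -0.15, with a 95% interval from -0.68 to 0.39 (SE 0.23; edgeR adjusted p = 0.783), and it lay between -0.21 and -0.09 with any 1 library left out. Kdm6a exceeded Kdm6b per kilobase by 1.90 and 2.02 times in the knockout, against 1.55 and 1.70 times in WT. The mean log2 ratio was 0.97 ± 0.06 in the knockout and 0.70 ± 0.09 in WT (SD, n = 2 each; exact permutation p = 0.333, two-sided, the smallest this test can give). Of 7 tested genes of the demethylases and their partners, 0 were called by edgeR in either direction, where 2.59% of all tested genes were. At an unadjusted p under 0.05 by edgeR there were 0, against 20.2% of all tested genes, and DESeq2 called 0, against 9.45%. With 7 genes, counts of 0 cannot be told apart from these shares. The median log2 fold change of the 7 was -0.09. The smallest p on this list was that of Kmt2d, which encodes the H3K4 methyltransferase of the UTX complex. It was at 199.6 and 171.4 CPM in the knockout, against 131.8 and 165.2 CPM in WT (log2 fold change 0.32; edgeR adjusted p = 0.298).

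Hdac7 (ENSMUSG00000022475.19; chromosome 15, 97792664 to 97844502, minus strand) had the largest difference of the 10 genes. It was at 160.7 and 174.4 CPM in the Mettl3 knockout, against 96.4 and 110.9 CPM in WT. Means were 167.5 ± 9.72 CPM in the knockout and 103.6 ± 10.3 CPM in WT (SD, n = 2 each), and the gap between the genotypes exceeded the gap within either. The log2 fold change was 0.69, with a 95% interval from 0.37 to 1.02 (SE 0.14; edgeR adjusted p = 0.0512), so it stood just outside the threshold. It passed with DESeq2 (adjusted p = 0.000336), with total-count scaling (adjusted p = 0.039; 1 of the 10 genes called, against 2.86% of genes) and among genes of at least 5 CPM in 2 libraries (adjusted p = 0.0228; 1 of the 10, against 7.39%). With any 1 library left out the log2 fold change was 0.58 to 0.79 and did not pass. In mouse thymocytes HDAC7 represses Nr4a1, an orphan nuclear receptor gene induced by the T cell receptor. Nr4a1 was at 37.4 and 37.1 CPM in the knockout, against 18.7 and 21.5 CPM in WT (0.89 ± 0.23, log2 fold change ± SE; edgeR adjusted p = 0.0895), which did not pass, although it did with DESeq2 (adjusted p = 0.0184).

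Hdac3 (ENSMUSG00000024454.15) was at 49.7 and 42.5 CPM in the Mettl3 knockout, against 45.4 and 30.9 CPM in WT. The genotypes overlapped, and the log2 fold change was 0.26, with a 95% interval from -0.30 to 0.83 (SE 0.24; edgeR adjusted p = 0.601); it lay between 0.02, with WT replicate 2 left out, and 0.57, with WT replicate 1 left out. Ncor1 (ENSMUSG00000018501.17; chromosome 11, 62316426 to 62458541, minus strand) was at 338.8 and 396.3 CPM in the knockout, against 457.9 and 259.5 CPM in WT. Both knockout values lay between the WT values, which differed by 1.76 times, the widest gap of the 10 genes in WT. The log2 fold change was 0.03, with a 95% interval from -0.53 to 0.59 (SE 0.24; edgeR adjusted p = 0.962), and it changed sign with the WT library used, to 0.49 without WT replicate 1 and -0.32 without WT replicate 2.

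**Figure D3:**
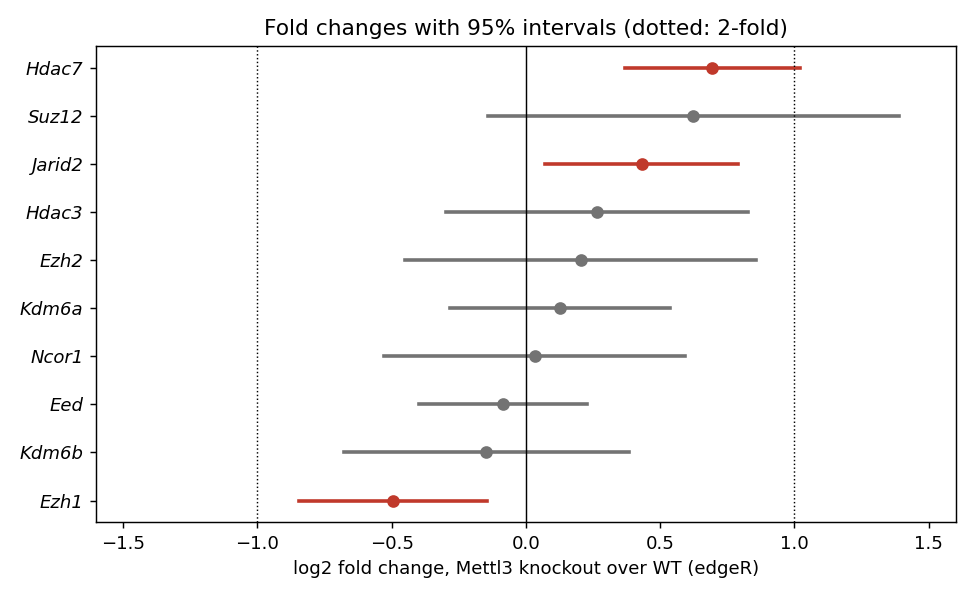
Log2 fold change of each of the 10 genes, Mettl3 knockout over WT, with its 95% interval from the edgeR fit; red marks intervals that exclude 0, and dotted lines mark 2-fold. Hdac7 at 0.69, Jarid2 at 0.43 and Ezh1 at -0.49 are the red genes, and none passed after adjustment over all genes.

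The libraries do not mark strand, and how reads in exons shared with antisense neighbours were counted is not stated. Shared exonic sequence made up 6.82% of Eed (with E230029C05Rik), 4.11% of Kdm6b (with Kdm6bos), 3.6% of Suz12 (with Gm26563), 2.61% of Ezh2 (with Gm26625), 0.64% of Ncor1 (with Pigl) and 0.429% of Hdac7 (with Slc48a1). For Ezh1, Jarid2, Kdm6a and Hdac3 the annotation held no overlapping exon of another gene.

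Among 73 other tested genes of the same and related complexes, 1 was higher and 1 lower in the Mettl3 knockout, against 1.09% and 1.51% of all tested genes, and their median log2 fold change was -0.000344. The lower gene was Cbx7, a chromodomain subunit of PRC1 that binds methylated H3K27. It was at 68.2 and 95.05 CPM in the knockout, against 147.2 and 171.4 CPM in WT (-0.96 ± 0.19, log2 fold change ± SE; edgeR adjusted p = 0.047), while the other 22 PRC1 genes were not called. The higher gene was Mbd6, a methyl-CpG-binding domain gene whose product associates with the Polycomb deubiquitinase. It was at 27.7 and 22.7 CPM in the knockout, against 8.00 and 8.36 CPM in WT (1.62 ± 0.30, log2 fold change ± SE; edgeR adjusted p = 0.0431). Leaving out any 1 library ended both calls (adjusted p from 0.0978 to 0.223 for Cbx7 and from 0.149 to 0.213 for Mbd6). DESeq2 called 8 of the 73, where it called 9.45% of all genes.

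None of the 13 tested PRC2 genes was called by edgeR, where 2.59% of all tested genes were. At an unadjusted p under 0.05, which 20.2% of all tested genes reached, there were 4 of these 13. The smallest p was that of Phf1, whose product recruits PRC2, at 64.0 and 50.7 CPM in the knockout, against 92.8 and 120.4 CPM in WT (-0.89 ± 0.20, log2 fold change ± SE; edgeR adjusted p = 0.0649, and 0.00214 with DESeq2). Of 11 histone deacetylase genes 0 were called by edgeR, with a median log2 fold change of -0.01. Hdac7 was the 1 gene of the 11 at an unadjusted p under 0.05, and it passed with DESeq2, total-count scaling and the 5 CPM filter. Next by p was Hdac10, at 37.6 and 28.0 CPM in the knockout, against 23.0 and 20.7 CPM in WT (edgeR adjusted p = 0.255). Of 5 genes of the NCoR complex 0 were called by edgeR (3 at an unadjusted p under 0.05). Tbl1xr1, a WD40 subunit, was at 53.9 and 54.8 CPM in the knockout, against 75.9 and 84.0 CPM in WT (log2 fold change -0.55; edgeR adjusted p = 0.121, and 0.0408 with DESeq2). Of 17 genes of the SIN3, NuRD and CoREST corepressors 0 were called by edgeR (3 at an unadjusted p under 0.05), with a median of -0.08. The smallest p there were those of Sin3b and Sap18, both of the SIN3 complex, with log2 fold changes of -0.43 and -0.45 (edgeR adjusted p = 0.124 and 0.125), and DESeq2 called both.

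**Figure D4:**
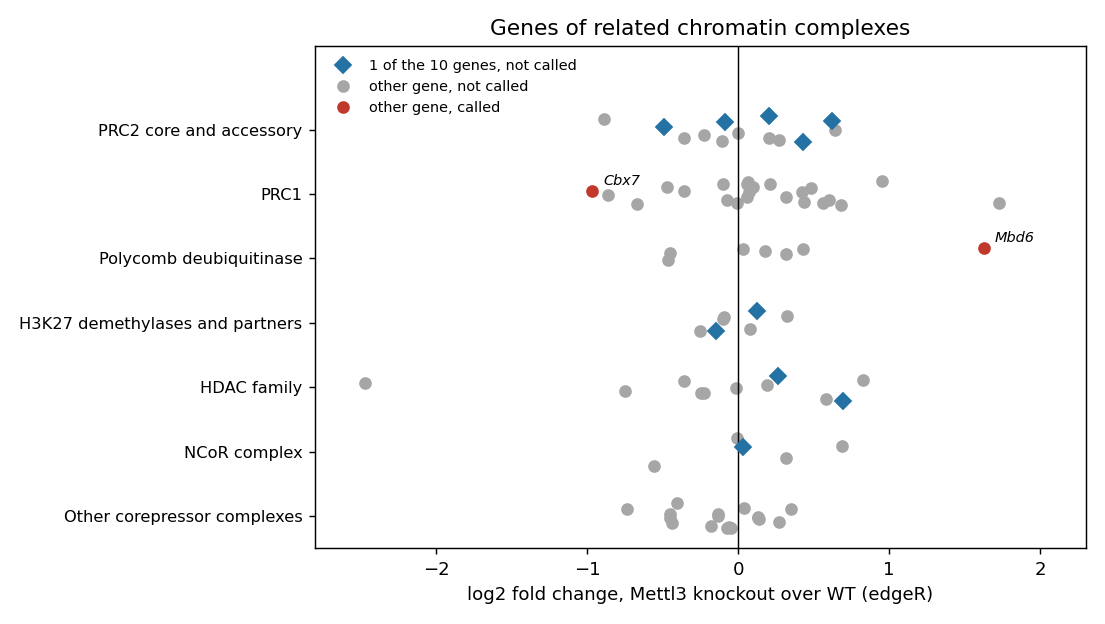
Log2 fold change, Mettl3 knockout over WT, of every tested gene on 7 lists of chromatin complexes; diamonds are the 10 genes, and red points passed the edgeR test. Points lie on both sides of 0 on each list, and the red points are Cbx7 at -0.96 and Mbd6 at 1.62.

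Genes that these enzymes are known to regulate in T cells were read next. Of 14 tested, 0 were higher and 2 lower in the Mettl3 knockout, against 1.09% and 1.51% of all tested genes. Their median log2 fold change was 0.12, the same when Eomes, without a WT count, was set at its bound. By edgeR 8 of the 14 had an unadjusted p under 0.05, against 20.2% of all tested genes. Libraries did not overlap for 10, 5 in each direction, against 50.3%. The lower genes were Tbx21, which encodes T-bet and is a PRC2 target in helper T cells, and Ifng, the interferon-γ gene that T-bet activates. Ifng was at 8.71 and 11.6 CPM in the knockout, against 27.4 and 33.4 CPM in WT (-1.58 ± 0.29, log2 fold change ± SE; edgeR adjusted p = 0.043), and leaving out any 1 library ended this call (adjusted p from 0.0956 to 0.218). Tbx21 was at 337.8 and 314.6 CPM in the knockout, against 552.5 and 731.7 CPM in WT (-0.98 ± 0.14, log2 fold change ± SE; edgeR adjusted p = 0.0202), and this call was lost without either knockout library (adjusted p = 0.115 and 0.148) or without WT replicate 2 (0.0529).

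Markers of iNKT subsets and of other cell types were also read, and Tbx21 and Ifng are themselves on the NKT1 list. Over all tested genes, 1.09% were called higher and 1.51% lower. Libraries did not overlap for 25.4% (higher) and 24.9% (lower), and 20.2% had an unadjusted p under 0.05 by edgeR. Of 10 markers of the interferon-γ-producing NKT1 subset, 10 fell, with a summed level of 1002 and 960.1 CPM in the Mettl3 knockout, against 2350 and 3015 CPM in WT. NKT17 markers summed to 122.5 and 139.8 CPM in the knockout, against 537.2 and 457.0 CPM in WT (7 of 10 lower). Of 8 markers of stage 0 precursors 4 rose, with 3548 and 3623 CPM in the knockout, against 2173 and 1988 CPM in WT. NKT2 markers (2 of 8 higher; median log2 fold change 0.84, with 5 of 8 not overlapping and higher and 1, Plac8, not overlapping and lower) summed to 2416 and 2232 CPM in the knockout, against 2635 and 1787 CPM in WT, a sum held mostly by Icos and Izumo1r, whose libraries overlapped. Myeloid and dendritic cell markers summed to 2109 and 2253 CPM in the knockout, against 130.9 and 253.5 CPM in WT (7 of 12 tested higher). Most of each sum was the MHC class II pathway genes H2-Aa, H2-Ab1 and Cd74. The rise was not shared by all: C1qa and C1qb overlapped (log2 fold changes -0.14 and -0.09), and Cst3 was lower without overlap (-0.65, not called). CD4+CD8+ thymocyte markers summed to 1301 and 1171 CPM in the knockout, against 757.2 and 880.0 CPM in WT. Of these 8, 0 were called by edgeR and 5 had an unadjusted p under 0.05. DESeq2 called Cd4, Cd8a, Cd8b1, Dntt and Rag1, where it called 9.45% of all genes. Conventional single-positive markers (3 of 6 higher) summed to 2552 and 2613 CPM in the knockout, against 2141 and 2250 CPM in WT. The most abundant of these 6, Il7r, was lower without overlap. It was at 967.4 and 1034 CPM in the knockout, against 1268 and 1267 CPM in WT (edgeR adjusted p = 0.0692). B cell markers (0 of 7 tested called by edgeR or DESeq2, 2 at an unadjusted p under 0.05) summed to 195.7 and 362.4 CPM in the knockout, against 235.5 and 221.3 CPM in WT, with Pax5 at 0 counts in every library. Erythroid and thymic stroma markers summed to at most 8.79 and 14.8 CPM in any library. Their part in the values of the 10 genes, Hdac7, Jarid2 and Ezh1 included, was not tested.

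All 11 listed markers of the labelled cell type were tested. Their sums were 6951 and 6864 CPM in the Mettl3 knockout, against 7247 and 7997 CPM in WT (1 higher, Slamf6, and 1 lower, Trac). Most of each sum was T cell receptor constant and CD3 genes, which are not particular to iNKT cells. The invariant receptor segments were low. Traj18 was at 1.63 and 2.29 CPM in the knockout, against 3.49 and 3.34 CPM in WT. Trav11 was at 0.777 and 1.16 CPM in the knockout, against 1.81 and 0.995 CPM in WT. The targeted gene, Mettl3, was at 78.1 and 91.4 CPM in the knockout, against 92.2 and 123.6 CPM in WT (log2 fold change -0.35; edgeR adjusted p = 0.357). Counts were per whole gene and not per exon, so this value does not check the deletion. How complete the deletion was in these cells was not tested. Total counts ranged from 24374587 to 28316016 per library.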

How the data were processed

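The authors deposited raw read counts per gene for 53715 versioned Ensembl IDs, with 1 column for each of 4 libraries and 0 columns of other samples. The submitters' processing notes name build mm10 and, in no stated role, DESeq2 1.18.1, HTSeq 0.6.1, STAR 2.6.0a and FastQC 0.11.5. Their settings, the annotation and the strand option are not stated there or in the labels. Smart-seq2 was the library method, per the labels' protocols.

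IDs were matched to GENCODE M21 (GRCm38): 53620 without the version suffix and 51464 with it. Where a symbol stood on several IDs, the one with the highest count was used. Coordinates are printed only for matching versions. Motifs were searched in GENCODE M21 transcripts, principal isoform first, then the longest coding sequence.

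Counts were filtered by filterByExpr, scaled by TMM and compared with edgeR 4.0.16 (glmQLFit and glmQLFTest, robust, two-sided) in R 4.3.3 on all 4 libraries with 2 residual degrees of freedom, and adjusted over all 14185 genes tested. SE is the log2 fold change over the square root of F. The script was tested on simulated data. Alternatives used DESeq2 1.42.0, limma 3.58.1 voom, other scalings and filters, a replicate block, a gene-length offset, and each library left out; a lone library is then assumed to vary like the others. Replicates differed beyond counting noise (chi-square per degree of freedom 27.8 in the knockout and 45.0 in WT) and were kept separate.

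The members and lists were chosen with earlier results of these data known. Named are the 10 members, called genes of each list (otherwise the 2 with the smallest p), Mettl3 and defining markers. Nr4a1 was named after its values were seen, as were the genes in the closing section. The reads carry no molecular identifiers. Errors cover library and counting error, and variation between animals only if the libraries are separate animals, which is not stated. Ezhip was not matched, and 1 gene that the rule selects on the NCoR complex list is not reported here. Marker genes called by DESeq2 alone were also named after their values were seen. So were marker and cell cycle genes named for their level, their direction or their part in a sum.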

Additional observations from a re-analysis of the deposited data

How the results depend on the processing

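Over 12 alternatives, 111 of 120 values of the 10 genes kept their direction and stayed outside the threshold, 4 passed and 5 changed sign. Hdac7 passed with DESeq2 (0.70), total-count scaling (0.75) and the 5 CPM filter (0.70), and Ezh1 with DESeq2 (-0.49). Ncor1 was -0.0436 with the gene-length trend removed. With 1 library left out the ranges were -0.32 to 0.49 for Ncor1, -0.17 to 0.50 for Ezh2 and -0.249 to 0.083 for Eed; the cause was not tested. The 368 calls over all genes became 1341 with DESeq2, 727 at 5 CPM or more, 33 with the replicate block and 41 to 172 with 1 library left out; the 154 higher against 214 lower became 208 and 197 with total-count scaling. Of the 10 genes, 2 were called by DESeq2 and 1 each by total-count scaling and at 5 CPM or more. Of the other chromatin genes, where 2 were called, 8 were by DESeq2, 1 each with total-count scaling and the length trend removed, and 0 with voom, without a filter, with the replicate block or with any library left out. Over all tested genes, the deviations of libraries with equal replicate numbers had a correlation of -0.0125. This value cannot tell whether such libraries shared a day or litter. With the replicate block Hdac7 was at 0.70 (edgeR adjusted p = 0.133). With 1 library left out the Ezh1 to Ezh2 difference was -0.97 to -0.36 and the Kdm6a to Kdm6b difference 0.20 to 0.34; Kdm6a was 0.02 to 0.23 and Hdac3 0.02 to 0.57. With 2 libraries per genotype, changes inside the intervals given are not excluded for any of the 10 genes.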

Other observations

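Libraries of 1 genotype differed unevenly among these genes. In WT the higher library of Ncor1 exceeded the lower by 1.76 times, a wider gap than 98.1% of 1110 tested genes of like level (within 2-fold of its mean), whereas in the knockout the gap was 1.17 times. Suz12 differed between libraries by 1.80 times in the knockout, more than 98.2% of 3894 genes of like level, and by 1.58 times in WT, more than 93.2%. Kdm1a, which encodes the histone demethylase LSD1 of the CoREST complex, was at 22.3 and 49.8 CPM in the knockout, against 35.5 and 23.7 CPM in WT. Hdac9, a class IIa deacetylase gene, was at 2.18 and 0.0401 CPM in knockout replicates 1 and 2, against 3.56 and 0.0398 CPM in WT replicates 1 and 2, so that replicate 2 of each genotype held a single read.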
